A study of Homo sapiens with 17 samples.

Results

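The 10 genes JAK1, JAK2, STAT3, STAT5A, STAT6, SOCS1, SOCS2, SOCS3, CISH and PIM1 were selected by gene symbol from the 26457 RefSeq genes of the deposited table, with earlier results of these data known. All 10 passed the filter on low values (a mean of at least 2.5 normalized reads over all libraries), as did 14800 genes in all. mRNA was measured in SW480, a human colon cancer line whose mutant p53 protein is called mutp53. The cells stably carried a doxycycline-inducible short hairpin RNA against either LacZ (control) or p53 (mutp53-depleted), and both lines were grown with puromycin and doxycycline. Each line was harvested untreated (0 h) and 16 h into treatment with 12.5 ng/ml TNF-α, which gave 4 groups with 2 biological replicates each, named A and B. The hairpin and the line that carries it cannot be told apart in these data, and whether each line is a clone is not given in the sources used here.

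JAK kinases sit on the intracellular part of cytokine receptors and are activated when a cytokine binds. They phosphorylate STAT proteins, which pair, move to the nucleus and act as transcription factors. STAT targets include genes of the SOCS family (SOCS1, SOCS2, SOCS3 and CISH), whose products dampen the receptor and JAK step, and the kinase gene PIM1. TNF-α itself signals through NFκB and the MAP kinases, not through a JAK-bound receptor. STAT3 is a known mediator of cytokine signalling in colon epithelium and colon tumours.

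The 8 libraries held between 6108488 and 13809578 reads on genes, and 1 read equalled between 0.6701 and 1.515 normalized reads, the deposited unit in which all libraries have the same total. The 8 colon epithelium markers summed to between 32774 and 63316 normalized reads per library and were lowest in mutp53-depleted cells at 16 h, although KRT20 and LGALS4 stayed at no more than 7 and 6 reads in any library. KRT8 and KRT18 made up most of these sums. VIL1 had 545 and 480 in untreated control against 8.71 and 12.3 in untreated mutp53-depleted cells, and EPCAM 5976 and 5687 against 2404 and 2367. CDX2 was not lower there (981 and 965 against 1038 and 1082). CDH1 fell with TNF-α in control cells from 485 and 467 to 87.0 and 78.2. Of the markers of other cell types, PTPRC and CSF1R (leukocytes), COL1A2, COL3A1 and DCN (fibroblasts) and PECAM1 and KDR (endothelium) had at most 3 reads in every library. The fibroblast list as a whole rose from between 38.5 and 39.4 in control cells to between 161 and 177 in mutp53-depleted cells at 0 h, through COL1A1 and PDGFRB. The leukocyte list summed to between 15.1 and 37.7 and the endothelial list to between 5.69 and 28.8 normalized reads in all libraries. Within these sums, ITGAM (leukocytes) went with TNF-α from 0 and 0 to 22.2 and 11.4 normalized reads in control cells and from 2.01 and 0 to 27.7 and 25.9 in the mutp53-depleted line, and CD14 fell from 34.8 and 21.2 to 12.6 and 9.96 in control cells. VWF (endothelium) had 6.53 and 6.06 in untreated control against 28.8 and 21.9 in untreated mutp53-depleted cells. Their part in the results was not tested.

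The promoters of 4 genes are shown, because these genes gave the largest TNF-α response (STAT5A), the only difference in TNF-α response that passed the test (STAT6) and the largest rise and fall after mutp53 depletion at 16 h among the 10 genes (SOCS1 and CISH). Each run is the 250 bases before a RefSeq start site (GRCh38.p14) in the direction of the gene, and capitals mark matches to the motifs searched. 4 motifs were searched on both strands. The palindromic STAT site is TTC and GAA with 3 bases between them, and the wider site favoured by STAT6 has the same letters with 4 bases between them. The other motifs are of the NFκB type, a strict form of GGG and TTCC with 3 bases between them and a looser form of GGG and TCC with 4 bases between them, which contains the strict form.
STAT5A, chr17:42287189-42287438, plus strand, the most upstream of its 3 windows: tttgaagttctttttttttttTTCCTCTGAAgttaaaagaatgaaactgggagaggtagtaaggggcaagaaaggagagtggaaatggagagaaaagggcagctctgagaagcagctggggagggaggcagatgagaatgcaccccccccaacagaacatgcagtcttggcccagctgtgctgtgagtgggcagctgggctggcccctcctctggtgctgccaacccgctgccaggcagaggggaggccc
STAT6, chr12:57110290-57110539, minus strand: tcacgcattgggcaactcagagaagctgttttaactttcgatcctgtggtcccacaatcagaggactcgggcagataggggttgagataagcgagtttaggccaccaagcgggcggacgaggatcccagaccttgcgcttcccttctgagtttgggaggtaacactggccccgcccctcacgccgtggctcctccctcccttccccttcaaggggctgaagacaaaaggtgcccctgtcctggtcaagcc
SOCS1, chr16:11256205-11256454, minus strand: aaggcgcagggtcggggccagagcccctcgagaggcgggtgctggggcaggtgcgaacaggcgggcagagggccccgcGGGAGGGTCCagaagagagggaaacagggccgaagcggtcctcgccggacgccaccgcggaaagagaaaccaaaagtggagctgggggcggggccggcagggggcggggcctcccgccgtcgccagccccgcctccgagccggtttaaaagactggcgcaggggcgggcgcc
CISH, chr3:50611775-50612024, minus strand: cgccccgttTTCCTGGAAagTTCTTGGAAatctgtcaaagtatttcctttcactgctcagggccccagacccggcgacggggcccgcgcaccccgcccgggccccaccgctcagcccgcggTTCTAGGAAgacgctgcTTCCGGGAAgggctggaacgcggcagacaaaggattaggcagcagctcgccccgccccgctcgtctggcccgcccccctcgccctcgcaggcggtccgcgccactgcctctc
The CISH window holds 4 matches to the palindromic STAT site, which begin 241, 230, 129 and 112 bases before the start site. This motif is in 6.57% of the 35116 windows of all genes, and 5 of them hold 4 or more matches. The STAT5A window holds a match to the wider STAT site that begins 229 bases before its start site, and 5.38% of all windows hold that motif. The STAT6 window has no match to the 4 motifs. The looser NFκB type motif, found in 19.9% of all windows, matched in the windows shown for SOCS1 and, among those not shown, in windows of PIM1 and JAK2. The strict form, in 5.67% of all windows, matched in none of the 17 windows of the 9 genes that have an entry. These matches describe the letters in the window and were not set against any measurement of binding. SOCS2 has no entry.

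The 2 kinases were present at very different levels. Per kb of exon, JAK1 had between 191 and 246 normalized reads in the 4 group means and JAK2 between 9.24 and 10.9. JAK1 serves interferon and interleukin 6 type receptors. In control cells it stood at 973 and 947 normalized reads at 0 h and at 1206 and 1268 at 16 h of TNF-α. Both TNF-α libraries were above both 0 h libraries, and the rise was 1.29-fold (log2 0.37 ± 0.07 SE, adjusted p = 0.00085, limma). In mutp53-depleted cells JAK1 stood at 1023 and 1083 normalized reads at 0 h and at 1097 and 1088 at 16 h, and this difference did not pass the test (log2 0.05, 95% interval -0.10 to 0.21, adjusted p = 0.64). The difference between the TNF-α responses of the 2 lines, the interaction, was -0.31 on the log2 scale and did not pass either (adjusted p = 0.13). After mutp53 depletion JAK1 was 1.10-fold higher at 0 h (adjusted p = 0.13) and 1.13-fold lower at 16 h (adjusted p = 0.047). The latter value lost the threshold when any of the libraries control 16 h B, mutp53-depleted 0 h A, mutp53-depleted 0 h B, mutp53-depleted 16 h A or mutp53-depleted 16 h B was left out, with adjusted p between 0.064 and 0.16. With the median difference of the 51 genes around JAK1 (-0.14) removed, it was -0.04 on the log2 scale (adjusted p = 0.67).

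JAK2, the kinase of the erythropoietin, growth hormone and GM-CSF receptors, had 46.5 and 68.2 normalized reads in untreated control cells, 72.5 and 37.0 at 16 h, 58.3 and 46.6 in untreated mutp53-depleted cells and 47.8 and 49.4 at 16 h. The libraries overlapped in all 4 comparisons. The 4 log2 differences lay between -0.12 and -0.09, each with a standard error of 0.29, and the 4 intervals (95%), of equal width, lay between -0.72 and 0.52. The intervals reflect the spread between libraries, which the fit draws toward that of genes at similar levels. JAK2 may have changed by amounts within them.

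All 3 STAT genes rose with TNF-α in control cells. STAT5A, which acts downstream of prolactin, growth hormone and interleukin 2 type receptors, had the largest response of the 10 genes. It stood at 42.8 and 48.5 normalized reads in untreated control cells and at 417 and 357 after TNF-α. In mutp53-depleted cells the values were 63.7 and 41.1 at 0 h and 267 and 301 after TNF-α. No 16 h library came near a 0 h library in either line, and the rise was 8.47-fold in control cells (log2 3.05 ± 0.19, adjusted p = 5.9e-10) and 5.43-fold in mutp53-depleted cells (log2 2.45 ± 0.19, adjusted p = 1.7e-08). The interaction of -0.61 on the log2 scale had a 95% interval of -1.16 to -0.05 but did not pass after adjustment over all genes (adjusted p = 0.3). The 0 h libraries of both lines overlapped, with a depletion difference of 0.17 (adjusted p = 0.48). At 16 h both mutp53-depleted libraries lay below both control libraries, 1.36-fold lower by the means (log2 -0.44, adjusted p = 0.057). This value passed in 7 of 17 alternatives, among them edgeR (adjusted p = 0.0031), DESeq2 (adjusted p = 0.039) and leaving out either mutp53-depleted 0 h library (adjusted p = 0.028 without A and 0.024 without B). With the median of its 51 neighbours removed it was -0.70 (adjusted p = 0.0069).

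STAT6, the transcription factor of interleukin 4 and interleukin 13 signalling, had a TNF-α response that differed between the 2 lines by the interaction test. The other 9 genes did not pass after adjustment, although the 95% intervals of the interaction of STAT5A, JAK1 and PIM1 also lay below 0. STAT6 stood at 689 and 653 normalized reads in untreated control cells and at 1178 and 1154 after TNF-α, a rise of 1.74-fold (log2 0.80 ± 0.07, adjusted p = 1.1e-07). In mutp53-depleted cells it was already at 1933 and 1781 at 0 h and stood at 2002 and 1967 after TNF-α, a difference of 1.07-fold (log2 0.10 ± 0.07, adjusted p = 0.35). All 4 mutp53-depleted libraries were above all 4 control libraries. The interaction was -0.70 ± 0.10 on the log2 scale (95% interval -0.91 to -0.49, adjusted p = 0.00048). It was the only interaction among the 10 genes at an adjusted p under 0.05, where 2.86% of all genes had 1 (0.655% above 0 and 2.21% below). Mutp53 depletion went with a 2.77-fold higher STAT6 level at 0 h (log2 1.47 ± 0.07, adjusted p = 1.8e-11) and a 1.70-fold higher level at 16 h (log2 0.77 ± 0.07, adjusted p = 6.4e-08).

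STAT3, the main STAT of the interleukin 6 family, rose with TNF-α and with mutp53 depletion. It stood at 544 and 515 normalized reads in untreated control cells, 832 and 770 in control cells given TNF-α, 996 and 957 in untreated mutp53-depleted cells and 1206 and 1313 in mutp53-depleted cells at 16 h. These 4 pairs do not overlap and follow each other in that order. The TNF-α rise was 1.51-fold in control cells (log2 0.60 ± 0.08, adjusted p = 1.4e-05) and 1.29-fold in mutp53-depleted cells (log2 0.37 ± 0.08, adjusted p = 0.002), and the interaction of -0.23 did not pass (adjusted p = 0.39). After mutp53 depletion STAT3 was 1.85-fold higher at 0 h (log2 0.88 ± 0.08, adjusted p = 4.1e-08) and 1.57-fold higher at 16 h (log2 0.65 ± 0.08, adjusted p = 1.8e-06).

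**Figure D1:**
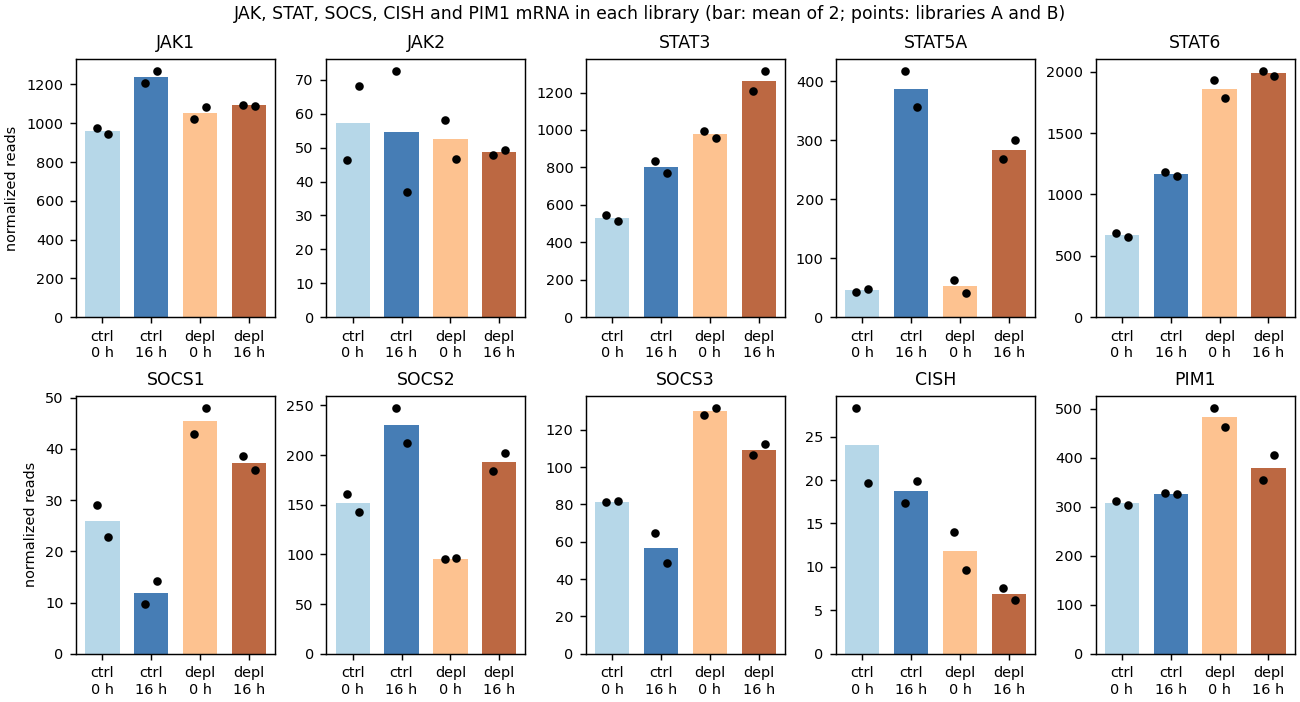
Normalized reads of each of the 10 genes in the 8 libraries, on a linear axis from 0. Bars are the means of 2 libraries and points the libraries themselves (A left, B right) for control (ctrl) and mutp53-depleted (depl) cells at 0 h and 16 h of TNF-α. STAT5A rises from 45.6 to 387 in control cells and, with mutp53 depleted, from 52.4 to 284, whereas STAT6 is at 1857 and 1985 in mutp53-depleted cells before and after TNF-α.

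STAT5A, STAT5B and STAT3 lie next to each other on chromosome 17 but did not respond alike to TNF-α. In the deposited hg19 coordinates STAT5A spans chr17:40439565-40463960 on the plus strand and STAT3 spans chr17:40465343-40540513 on the minus strand. The start site of STAT5B lies 11.1 kb from that of STAT5A and the start site of STAT3 100.9 kb from it. STAT5B had 350 and 358 normalized reads in untreated control cells and 304 and 314 at 16 h, a log2 difference of -0.19. In mutp53-depleted cells it fell from 407 and 444 to 326 and 348 (log2 -0.34 ± 0.10, adjusted p = 0.016). Among the 33 other tested genes within 500 kb of STAT5A, the median TNF-α difference in control cells was -0.04 on the log2 scale. CNTNAP1, 395.1 kb away, was the only one of the 33 called higher in control cells, with a difference of 2.76 there and 2.42 in mutp53-depleted cells. STAT5A and STAT5B are near copies of each other, and 11.9% of the 50-base windows of the longest reference STAT5A transcript also occur in STAT5B transcripts. How reads that match both genes were counted is not given in the sources used here.

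**Figure D2:**
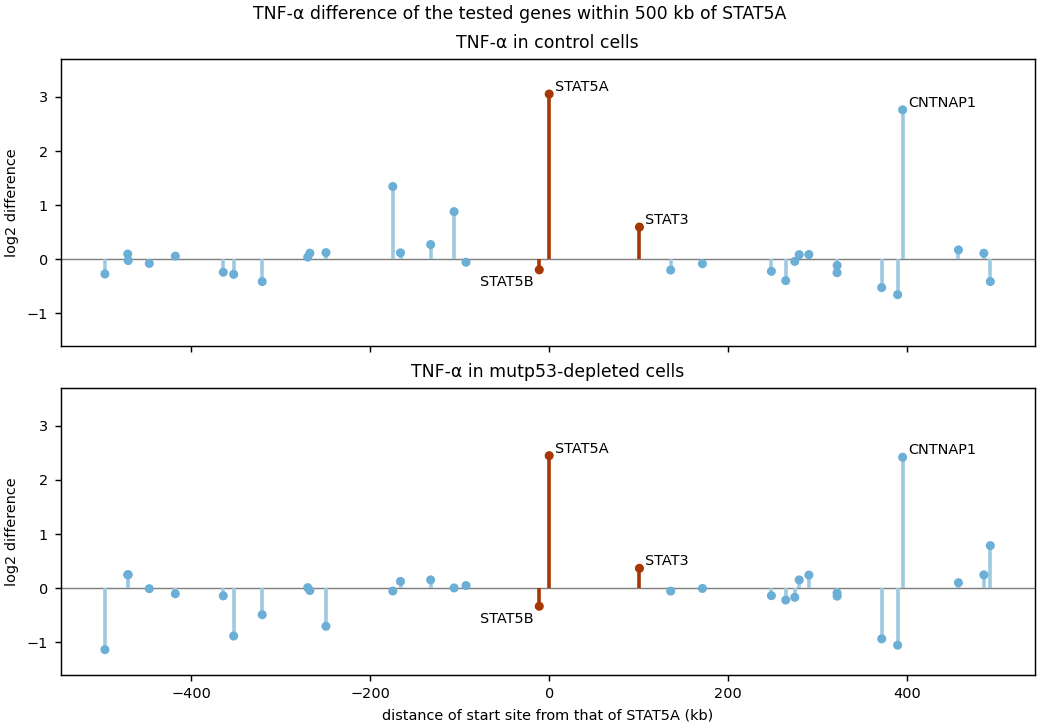
Difference with TNF-α (16 h minus 0 h, log2 scale) of the 34 tested genes whose start sites lie within 500 kb of that of STAT5A, against distance in kb, in control cells (top) and mutp53-depleted cells (bottom). The 3 STAT genes are in brown. STAT5A (3.05 and 2.45) and CNTNAP1 (2.76 and 2.42) stand above the rest in both lines, and STAT5B lies below 0 in both.

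The position of a gene also bears on the depletion comparisons, because long stretches of chromosome differed together between the 2 lines. For each gene the median depletion difference of the 51 tested genes centred on it was therefore computed. At 0 h this median was 0.44 on the log2 scale at both STAT3 and STAT5A, 0.35 at SOCS3, 0.18 at STAT6 and 0.53 at SOCS2, and it lay between -0.15 and 0.06 at the other 5 genes. With the median removed, STAT3 stayed 0.44 higher at 0 h (adjusted p = 0.00027) and STAT6 stayed 1.28 higher (adjusted p = 1e-08), while the value of STAT5A at 0 h went from 0.17 to -0.28 and passed in neither form. At 16 h STAT3 stayed 0.37 higher (adjusted p = 0.0012) and STAT6 0.51 higher (adjusted p = 2e-05). The 24 other tested genes within 500 kb of STAT6 had a median depletion difference of 0.29 at 0 h, and STAT6 was above 23 of them. NAB2 overlaps the end of STAT6 by 73 bases and RAVER2 that of JAK1 by 9 bases, both on the opposite strand, and the header of the table gives counting by strand.

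The 4 genes of the SOCS family did not move in the same direction. SOCS1, an inhibitor that binds JAKs directly, fell with TNF-α in control cells and was higher in mutp53-depleted cells. It had 29.0 and 22.7 normalized reads in untreated control cells and 9.67 and 14.2 at 16 h, a fall of 2.17-fold (log2 -1.07 ± 0.31, adjusted p = 0.014). The lower pair rested on 10 reads in each library. This call was lost without control 0 h A (log2 -0.90, adjusted p = 0.1), without control 16 h A (log2 -0.81, adjusted p = 0.1) and with DESeq2 on the recovered reads (adjusted p = 0.12). In mutp53-depleted cells SOCS1 had 42.9 and 48.0 normalized reads at 0 h and 38.6 and 35.8 at 16 h. The TNF-α difference there was -0.28 (adjusted p = 0.55), and the interaction of 0.79 did not pass (95% interval -0.13 to 1.69, adjusted p = 0.47). All 4 mutp53-depleted libraries were above all 4 control libraries. The depletion difference was 1.76-fold at 0 h (log2 0.80 ± 0.31, adjusted p = 0.036) and 3.11-fold at 16 h (log2 1.58 ± 0.31, adjusted p = 0.00028). The value at 0 h lost the threshold without control 0 h B (adjusted p = 0.18), without mutp53-depleted 0 h A (adjusted p = 0.086) and without mutp53-depleted 0 h B (adjusted p = 0.17), whereas the call at 16 h held under all 17 alternatives.

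SOCS3, the inhibitor of gp130 signalling and a classical STAT3 target, followed the same order of groups at higher levels. It stood at 81.3 and 81.8 normalized reads in untreated control cells, 64.8 and 48.4 in control cells given TNF-α, 128 and 132 in untreated mutp53-depleted cells and 106 and 112 in mutp53-depleted cells at 16 h. The libraries of the 4 groups did not overlap. SOCS3 was 1.59-fold higher after mutp53 depletion at 0 h (log2 0.66 ± 0.18, adjusted p = 0.0054) and 1.93-fold higher at 16 h (log2 0.95 ± 0.18, adjusted p = 0.00028), just under the 2-fold limit, which it crossed without control 16 h A (log2 1.16). With the median of its neighbours removed, the value at 0 h was 0.32 and no longer passed (adjusted p = 0.19). The TNF-α fall in control cells was 1.44-fold (log2 -0.53 ± 0.18, adjusted p = 0.039), and it lost the threshold in 9 of 16 alternatives, among them leaving out control 0 h A, control 0 h B, control 16 h B, mutp53-depleted 0 h A or mutp53-depleted 0 h B (adjusted p between 0.06 and 0.27). In mutp53-depleted cells the TNF-α difference was -0.25 (adjusted p = 0.36).

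SOCS2, which restrains growth hormone signalling, moved the other way. It had 161 and 142 normalized reads in untreated control cells and 247 and 212 at 16 h, a rise of 1.51-fold (log2 0.59 ± 0.14, adjusted p = 0.004). In mutp53-depleted cells it had 95.2 and 96.0 at 0 h and 184 and 202 at 16 h, a rise of 2.02-fold (log2 1.01 ± 0.14, adjusted p = 2.9e-05) that stands at the 2-fold limit. Without mutp53-depleted 16 h B that rise was 0.94 on the log2 scale and no longer 2-fold, and the rise in control cells lost the threshold without control 0 h B (adjusted p = 0.052) or control 16 h A (adjusted p = 0.053). The interaction of 0.42 did not pass (95% interval -0.01 to 0.83, adjusted p = 0.38). After mutp53 depletion SOCS2 was 1.59-fold lower at 0 h (log2 -0.66 ± 0.14, adjusted p = 0.0007), and at 16 h the difference was -0.24 (adjusted p = 0.16). The 51 genes around SOCS2 had a median of 0.53 at both times, and with it removed the differences were -1.19 at 0 h (adjusted p = 5.9e-06) and -0.78 at 16 h (adjusted p = 0.00043).

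CISH, an inducible inhibitor known from STAT5 signalling, was the lowest of the 10 genes per kb of exon in all 4 group means, although its libraries overlapped those of the next gene in control cells. It had 28.3 and 19.7 normalized reads in untreated control cells, 17.4 and 19.9 in control cells given TNF-α, 14.1 and 9.60 in untreated mutp53-depleted cells and 7.55 and 6.17 in mutp53-depleted cells at 16 h. The last pair rested on 9 and 5 reads. All 4 mutp53-depleted libraries lay below all 4 control libraries. CISH was 2.72-fold lower after mutp53 depletion at 16 h (log2 -1.32 ± 0.40, adjusted p = 0.009), a call that was lost without control 16 h B (log2 -1.23, adjusted p = 0.051) and with DESeq2 (adjusted p = 0.076). At 0 h it was 2.03-fold lower by the means (log2 -0.96 ± 0.40, adjusted p = 0.049), and this value lost the threshold in 10 of 17 alternatives. Among them were all libraries left out singly other than the mutp53-depleted libraries of 16 h, with adjusted p between 0.053 and 0.27. The TNF-α differences were -0.33 in control cells (adjusted p = 0.6) and -0.69 in mutp53-depleted cells (adjusted p = 0.22). STAT5A and CISH, the latter a gene whose window holds the 4 STAT motif matches shown above, had opposite signs of the TNF-α difference in both lines, although that of CISH passed in neither.

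PIM1, a serine/threonine kinase gene induced by STAT3 and STAT5 in blood cells, had 312 and 303 normalized reads in untreated control cells and 328 and 327 at 16 h, a difference of 0.09 (adjusted p = 0.56). In mutp53-depleted cells it had 502 and 463 at 0 h and 355 and 406 at 16 h, a fall of 1.27-fold (log2 -0.35 ± 0.10, adjusted p = 0.015). That fall lost the threshold without mutp53-depleted 0 h A (adjusted p = 0.15), without mutp53-depleted 16 h A (adjusted p = 0.17) and with DESeq2 (adjusted p = 0.13). The interaction was -0.44 (95% interval -0.73 to -0.14, adjusted p = 0.12). PIM1 was 1.57-fold higher after mutp53 depletion at 0 h (log2 0.65 ± 0.10, adjusted p = 2.7e-05), where its 51 neighbours had a median of -0.15. At 16 h the difference was 0.21 (adjusted p = 0.086), which crossed the threshold without mutp53-depleted 16 h A (adjusted p = 0.049). With the median of its neighbours (-0.16) removed it was 0.37 and passed (adjusted p = 0.0052).

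**Figure D3:**
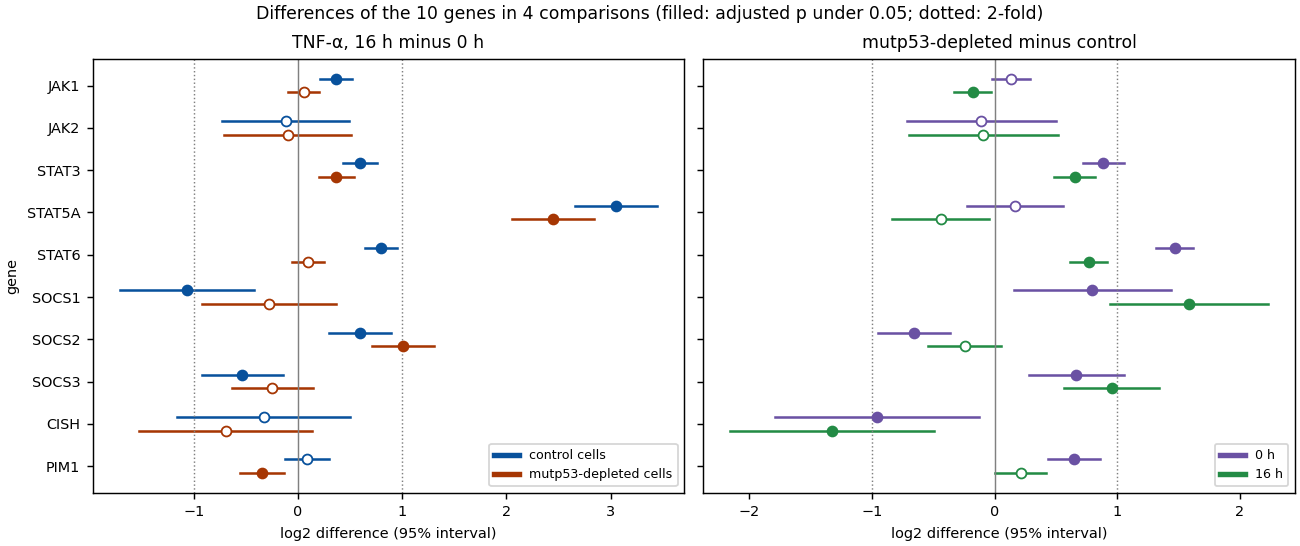
Log2 differences of the 10 genes with 95% intervals, for TNF-α (16 h minus 0 h) in control and mutp53-depleted cells on the left and for mutp53-depleted minus control cells at 0 h and 16 h on the right. Filled points have an adjusted p under 0.05 and dotted lines mark 2-fold. STAT5A lies beyond the 2-fold line with TNF-α in both lines, STAT6 beyond it for depletion at 0 h (1.47), and SOCS1 (1.58) and CISH (-1.32) on opposite sides for depletion at 16 h.

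A gene was called when its adjusted p was under 0.05 and its fold change at least 2. With TNF-α in control cells, 2 of the 10 genes were called (STAT5A higher and SOCS1 lower), where 7.24% of all genes tested were called (2.97% higher and 4.27% lower), and 5 rose and 2 fell at the adjusted p alone, where 26.3% of all genes passed. In mutp53-depleted cells 2 were called, STAT5A and SOCS2, both higher, where 6.36% of all genes were called (1.86% higher and 4.5% lower), and 3 rose and 1 fell at the adjusted p alone (26.7% of all genes). After depletion at 0 h, STAT6 alone was called, higher (15.4% of all genes, 5.89% higher and 9.55% lower), and 5 rose and 2 fell at the adjusted p alone (52.5% of all genes). At 16 h SOCS1 was called higher and CISH lower (15.2% of all genes, 5.03% higher and 10.2% lower), and 4 rose and 2 fell at the adjusted p alone (51.3% of all genes). The median log2 difference of the 10 genes and that of all genes tested were 0.23 and -0.05 for TNF-α in control cells, -0.02 and -0.06 for TNF-α with mutp53 depleted, 0.41 and 0.03 for depletion at 0 h, and 0.06 and -0.01 for depletion at 16 h. The 2 libraries of a group did not overlap with those of the other in 8, 9, 8 and 9 of the 10 genes in these comparisons, where 59.5%, 65.2%, 77.4% and 74.5% of all genes did not overlap. The comparisons share groups, so their counts are not independent of each other.

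The order of the 10 levels changed between groups. In control cells at 0 h, per kb of exon, JAK1 was highest (191 normalized reads per kb), followed by STAT6 (168), PIM1 (114) and STAT3 (108), then SOCS2 (52.7), SOCS3 (29.8) and SOCS1 (21.3). JAK2, STAT5A and CISH, between 10.6 and 10.9, did not differ beyond the spread of their libraries. After TNF-α in control cells STAT6 (292) stood above JAK1 (246), and STAT5A (90.4) moved up beside SOCS2 (79.9), with overlapping libraries, while JAK2, SOCS1 and CISH formed the lowest group between 8.25 and 10.4. In mutp53-depleted cells at 0 h STAT6 (465) was far above JAK1 (209) and STAT3 (198), and SOCS1 (37.5) stood above SOCS2 (33.2). In mutp53-depleted cells at 16 h the order was STAT6 (497), STAT3 (256), JAK1 (217) and PIM1 (141), then SOCS2 (67.2) and STAT5A (66.5) with overlapping libraries, and CISH was lowest at 3.03.

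**Figure D4:**
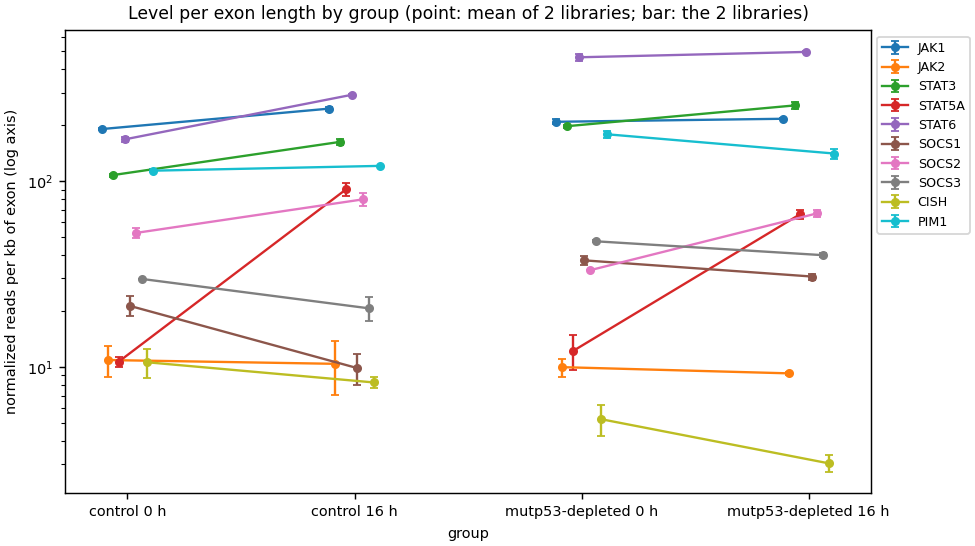
Normalized reads per kb of exon (log axis) of the 10 genes in the 4 groups, with lines joining 0 h and 16 h of each line. Points are means of 2 libraries and bars reach to the 2 libraries. STAT5A climbs from the lowest group to the level of SOCS2 in both lines, and CISH has the lowest mean in each group, with libraries that overlap those of the next gene in control cells, and is at 3.03 in mutp53-depleted cells at 16 h.

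The genes most like the 3 members with the widest range of group means were found by the root mean square (RMS) difference of centred log2 values over the 8 libraries, among 14800 genes. STAT5A, whose group means spanned 3.05 on the log2 scale, was most like LIMD2 (RMS difference 0.17), NFKBIE (0.23), N4BP3 (0.25) and its chromosome neighbour CNTNAP1 (0.26). LIMD2 is also on chromosome 17, and its TNF-α differences were 2.93 in the control and 2.39 in the mutp53-depleted line. SOCS1, with a span of 1.86, was most like EIF5A2 and DOC2A (both 0.20), PPP1R2P3 (0.20) and KRT39 (0.21). CISH, with a span of 1.65, was most like OPLAH (0.14), NECAB3 (0.15), PPP2R2C (0.16) and SYN1 (0.17). These values describe the 8 libraries and carry no test.

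The rest of the pathway was described with 7 lists of 93 genes, of which 73 passed the filter. Over these lists, 12 of the 73 genes were called higher and 4 lower with TNF-α in control cells (2.97% and 4.27% of all genes), 12 and 4 with TNF-α in the mutp53-depleted line (1.86% and 4.5%), 3 and 7 after depletion at 0 h (5.89% and 9.55%) and 3 and 9 after depletion at 16 h (5.03% and 10.2%). Of the 5 other JAK and STAT genes tested, none was called in the 4 comparisons by limma, edgeR or DESeq2. At the adjusted p alone, as at an unadjusted p under 0.05, limma gave 1 and 2 of them for TNF-α in control and mutp53-depleted cells. For depletion at 0 h and 16 h it gave 1 and 3. Of all genes, 26.3%, 26.7%, 52.5% and 51.3% passed the adjusted p in these 4 comparisons. STAT4 had no read in any library. STAT2, a STAT of interferon signalling, had 554 and 586 normalized reads in control cells against 435 and 373 in mutp53-depleted cells at 16 h, and was 1.41-fold lower (log2 -0.50 ± 0.10, adjusted p = 0.0004). Its interaction of -0.58 ± 0.14 (adjusted p = 0.031) lost the threshold without control 0 h A, control 16 h A, control 16 h B, mutp53-depleted 0 h A or mutp53-depleted 16 h B, with values between -0.62 and -0.47. It was also lost with no filter, a pseudocount of 0.1, DESeq2 or the neighbours removed (adjusted p between 0.054 and 0.083), 9 of 17 alternatives in all. With the neighbours removed the difference at 16 h was -0.76. Of the 4 other SOCS genes, SOCS5, SOCS6 and SOCS7 were higher after mutp53 depletion at both times, by between 1.43-fold and 1.60-fold. This is at the adjusted p alone, where 27.3% of all genes were higher at 0 h and 24.9% at 16 h. SOCS4 passed at neither time. SOCS7 lay among genes with a median of 0.46 at 0 h, and with it removed its difference there was 0.07 and no longer passed (adjusted p = 0.67), whereas SOCS5 (0.36) and SOCS6 (0.50) still passed.

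Of the 11 other negative regulators tested, which include phosphatases and PIAS proteins, 7 were higher at 0 h and 6 at 16 h after depletion at the adjusted p alone, where 27.3% and 24.9% of all genes were higher, and none was lower at either time, also at an unadjusted p under 0.05 with limma or at an adjusted p under 0.05 with edgeR or DESeq2. All stayed under 2-fold. The phosphatase gene PTPN11 (SHP2) was 1.72-fold higher at 0 h, and with the median of its 51 neighbours (0.59) removed it was 0.19 and no longer passed (adjusted p = 0.067), nor at 16 h (0.08, adjusted p = 0.43). PTPN6 and SH2B3, also counted higher at 0 h, went to -0.15 and -0.10 with their neighbours removed (adjusted p = 0.28 for each), and SH2B3 no longer passed at 16 h (adjusted p = 0.37). PTPN1 was 1.52-fold higher at 0 h and stayed 0.39 higher with its neighbours removed (adjusted p = 0.0002). USP18, an inhibitor of interferon signalling and the only gene of this list called in any comparison, fell with TNF-α in control cells from 7.26 and 4.54 to 0 and 1.42 normalized reads, at least 1.65-fold lower against a floor of 3 reads per library (adjusted p = 0.042). That call was lost without control 16 h A, mutp53-depleted 0 h A or mutp53-depleted 0 h B, with adjusted p between 0.05 and 0.21. Of the PIM1 relatives, PIM3 rose 1.51-fold in control cells and 1.57-fold in mutp53-depleted cells with TNF-α, and PIM2 passed in neither.

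Of the 27 chains of receptors that signal through JAKs, 19 passed the filter. With TNF-α 9 rose and 3 fell in control cells at the adjusted p alone, where 11.1% and 15.2% of all genes did, and 8 rose and 2 fell in mutp53-depleted cells (9.8% and 16.9% of all genes). After mutp53 depletion 8 of the 19 were lower at 0 h, where 25.2% of all genes were lower and 27.3% higher. None was higher there with limma, where 2 were at an unadjusted p under 0.05, 1 at an adjusted p under 0.05 with edgeR and 0 with DESeq2. At 16 h 12 were lower and 1 was higher (26.5% and 24.9% of all genes). Among those lower at both times, IFNAR1, IFNAR2, IFNGR2 and IL10RB lay among genes that were lower as a whole, with neighbour medians between -0.45 and -0.37 at 0 h and between -0.39 and -0.38 at 16 h. With these removed, IFNGR2 (0.19 at 0 h and -0.17 at 16 h) and IL10RB (-0.33 and -0.30) no longer passed at either time, while IFNAR1 (-0.21 and -0.51) and IFNAR2 (-0.34 and -0.83) still did. IL2RG, the chain shared by the interleukin 2 receptor family, rose from 4.35 and 4.54 normalized reads to 87.0 and 68.3 in control cells (17.5-fold), and with mutp53 depleted from 8.04 and 5.48 to 31.9 and 28.4 (4.46-fold). At 16 h it was 2.58-fold lower in mutp53-depleted than in control cells (adjusted p = 0.0047), a call lost without control 16 h A. IL7R had no read at 0 h in either line and 19.3 and 15.7 normalized reads in control cells against 31.0 and 18.5 in mutp53-depleted cells at 16 h, at least 5.20-fold and 8.09-fold higher. IL4R, which signals through STAT6, went opposite to STAT6 between the lines. It had 170 and 189 normalized reads in control cells against 59.6 and 56.2 in mutp53-depleted cells at 0 h, 3.10-fold lower (log2 -1.61 ± 0.17, adjusted p = 2.2e-07), and 323 and 263 against 156 and 115 at 16 h, 2.16-fold lower. The value at 16 h fell under 2-fold without control 16 h A (log2 -0.97) or mutp53-depleted 16 h B (log2 -0.90). IL20RA was 2.90-fold lower at 0 h and 3.04-fold lower at 16 h. Its TNF-α falls of 2.05-fold in control cells and 2.14-fold in mutp53-depleted cells stood at the 2-fold limit, and went under it without control 0 h A or control 16 h A and without mutp53-depleted 16 h A, respectively. The TNF-α rise of IL4R in mutp53-depleted cells (2.34-fold) did so without mutp53-depleted 16 h A. IL11RA was 2.61-fold lower at 0 h, with 36.3 and 59.1 against 21.4 and 15.1 normalized reads, a call lost without control 0 h B or mutp53-depleted 0 h B, and 2.74-fold lower at 16 h, a call lost without control 16 h A or mutp53-depleted 16 h B. EPOR was 2.19-fold lower at 16 h, a call lost without mutp53-depleted 16 h B. IFNGR1, the ligand-binding interferon gamma chain, rose 2.46-fold with TNF-α in control cells and 1.38-fold in mutp53-depleted cells. LIFR, CRLF2, CSF3R and CSF2RA had no read in any library.

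Of the 20 cytokines that signal through JAKs, 11 passed the filter, and IL6, OSM, IL4, IFNB1 and IFNG had no read in any library. CSF2 (GM-CSF) rose with TNF-α from 2.90 and 6.06 to 426 and 265 normalized reads in control cells (77.1-fold), and with mutp53 depleted from 14.1 and 20.6 to 541 and 523 (30.7-fold). IL23A rose from 64.6 and 43.9 to 735 and 555 in control cells (11.9-fold), and with mutp53 depleted from 29.5 and 26.1 to 210 and 191 (7.23-fold), and at 16 h it was 3.21-fold lower in mutp53-depleted cells (adjusted p = 8.8e-07). EBI3, a subunit of interleukins 27 and 35, had 102 and 93.9 normalized reads in control cells against 23.5 and 21.0 in mutp53-depleted cells at 16 h, 4.40-fold lower (adjusted p = 0.0069), a call lost without control 16 h A. IL11, of the gp130 family, was 2.99-fold lower after depletion at 0 h and 2.60-fold lower at 16 h, where its 51 neighbours had medians of -0.67 and -0.63, and with these removed it was -0.83 at 0 h (adjusted p = 0.033) and -0.68 at 16 h (adjusted p = 0.078). IL7 was called higher after depletion at 16 h, a call lost without control 16 h A, and IL12A with TNF-α in control cells, a call lost without control 0 h A, control 0 h B or control 16 h A. They reached at most 11 and 26 reads in any library.

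STAT target genes moved in both directions. Of the 21 tested of 22, 7 rose and 9 fell with TNF-α in control cells at the adjusted p alone (11.1% and 15.2% of all genes), and 9 rose and 6 fell in mutp53-depleted cells (9.8% and 16.9%). After depletion 9 were higher and 4 lower at 0 h (27.3% and 25.2% of all genes), and 8 were higher and 5 lower at 16 h (24.9% and 26.5%). ICAM1 and BCL3 are also known NFκB targets. ICAM1, an adhesion molecule, rose from 306 and 292 to 4410 and 3400 normalized reads in control cells (13.0-fold), and with mutp53 depleted from 455 and 307 to 3101 and 2487 (7.33-fold). BCL3, an IκB family member, rose from 31.2 and 24.2 to 372 and 252 in control cells (11.3-fold), and with mutp53 depleted from 60.3 and 56.2 to 161 and 154 (2.71-fold), with an interaction of -2.01 ± 0.28 (adjusted p = 0.0004). It was 2.10-fold higher after depletion at 0 h, under 2-fold without control 0 h B (log2 0.88). LCN2 (lipocalin 2) was higher in mutp53-depleted cells, with 49.4 and 51.5 against 218 and 111 normalized reads at 0 h (3.26-fold) and 33.8 and 44.1 against 293 and 248 at 16 h (6.94-fold, adjusted p = 2.7e-08). FOS fell 3.50-fold with TNF-α in control cells and 2.98-fold in mutp53-depleted cells, and CEBPD fell 1.82-fold and 3.16-fold. A2M, called lower with TNF-α in control cells and after depletion at 0 h, reached at most 21 reads in any library, and its TNF-α call was lost when any 1 of the 4 control libraries was left out.

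**Figure D5:**
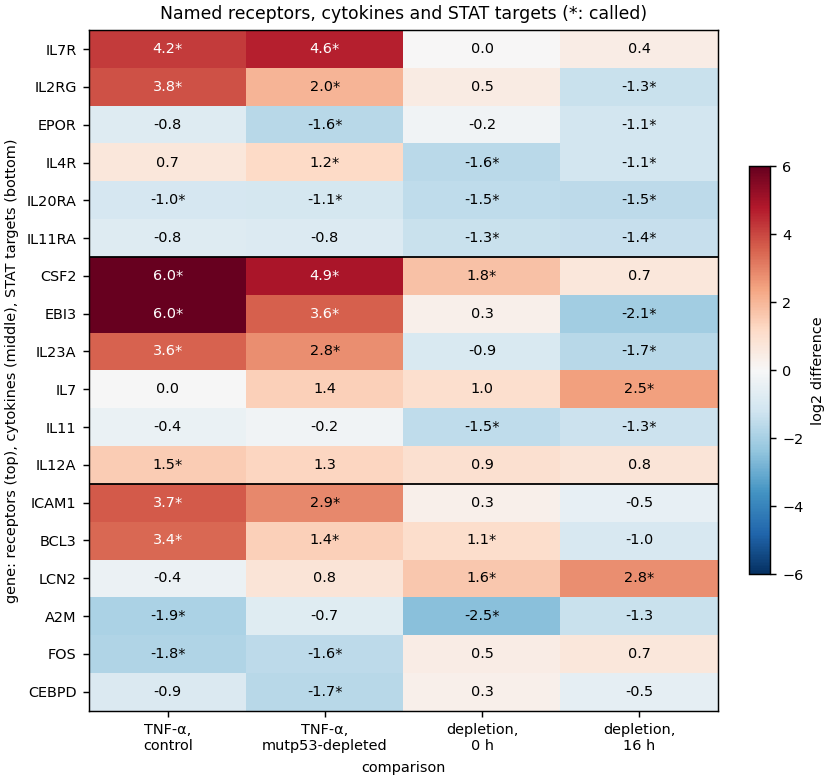
Log2 differences of the named receptor chains, cytokines and STAT targets in 4 comparisons, as coloured cells with the value printed, from blue (lower) to red (higher). Asterisks mark an adjusted p under 0.05 with at least 2-fold. Of the genes plotted, CSF2 and EBI3 have the largest TNF-α differences in control cells (6.01 and 5.96), and IL20RA and IL11RA are blue in both depletion columns.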

How the data were processed

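mRNA was measured in the 4 groups of SW480 cells. The authors mapped 50-base single-end reads of strand-specific dUTP, poly(A)-selected libraries with STAR and counted exon reads of RefSeq genes by strand with HOMER. The signal values the authors deposited (normalized reads) are those reads scaled by a single factor for each library to a common total. The header and coordinates give hg19, and the paper's methods name hg38. The deposited log2 fold changes and p-values of 4 comparisons were not used. ChIP-seq and GRO-seq samples were not analysed here, and some genes are not reported here. Exon lengths are those in the table.

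The 10 genes and all lists were chosen with earlier results of these data known. Replicate letters come only from the column names, and their group from the names matched to the labels. Reads were recovered by dividing by the value of 1 read, and 100% of values were whole within 0.1 read. Reads on genes made up 74.51% to 79.51% of the library totals in the header.

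Values were compared as log2(value + 1) using limma (version 3.58.1, R 4.3.3), with eBayes and a mean trend. The fit held all 8 libraries, which share 1 estimate of the spread, and the 14800 genes whose mean reached 2.5. Two-sided p-values were adjusted by Benjamini-Hochberg over all genes tested. Genes were called at an adjusted p under 0.05 and at least 2-fold, the interaction (TNF-α response in mutp53-depleted less that in control cells) at the adjusted p alone. Fold changes given are ratios of group means. With 2 libraries per group, p-values rest on the spread between these libraries, which eBayes draws toward the trend over all genes tested.

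Genes named were the 10 members, for each pathway list at most the 6 called genes with the largest log2 difference, and for the 3 members with the widest range the 4 most similar genes. Chosen after their values were seen were the other genes of the pathway lists named with values, the promoter windows, and the genes near STAT5A and STAT6. Alternatives were median-ratio scaling, a filter at a mean of 10 or none, a pseudocount of 0.1 or 5, a replicate block, edgeR 4.0.16 (quasi-likelihood test with TMM) and DESeq2 1.42.0 on recovered reads, removal of the median of 51 neighbouring genes from depletion contrasts, and leaving out each library. The procedure was tested on simulated data for TNF-α in control cells over 14706 genes, where 200 of 200 changed genes were called, with 6 false calls. The changed genes were drawn from those well above the filter and given changes well over 2-fold, with the same spread set for all genes. The simulation therefore does not show how calls near 2-fold or at few reads fare. Promoters are from RefSeq (GRCh38.p14), with entries for 9 of the 10 genes, and transcripts for the STAT5 comparison from the GENCODE annotation. Python 3.11.15, numpy 2.4.6, pandas 2.3.3 and matplotlib 3.10.9 were used.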

Additional observations from a re-analysis of the deposited data

Results flagged for a closer look

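For STAT6 and 7 of the 73 pathway genes tested, the TNF-α response differed between the lines by the interaction test. Of the 7, 1 was above 0 and 6 below, where 0.655% and 2.21% of all genes were (2.86% in all). Values are the log2 response in mutp53-depleted cells less that in control cells, with limma's adjusted p. STAT6 had -0.70 (SE 0.10, adjusted p = 0.00048), and it kept an adjusted p under 0.05 under all 17 alternatives. BCL3 had -2.01 (SE 0.28, adjusted p = 0.0004), again under all 17 alternatives. ICAM1 had -0.80 (SE 0.20, adjusted p = 0.04) and lost the threshold in 9 of the 17 alternatives, with adjusted p up to 0.38, among them leaving out control 0 h A, control 0 h B, control 16 h A, mutp53-depleted 0 h A (-0.52) or mutp53-depleted 16 h B. CEBPD had -0.81 (SE 0.18, adjusted p = 0.019) and lost it in 5, without a filter (adjusted p = 0.06) and without control 0 h B, control 16 h A, mutp53-depleted 0 h A or mutp53-depleted 16 h B (adjusted p between 0.089 and 0.13). STAT2 had -0.58 (SE 0.14, adjusted p = 0.031) and lost the threshold in 9 alternatives, with the libraries that decide it given above. IL6ST, the gp130 chain, had -0.46 (SE 0.11, adjusted p = 0.021) and lost it in 6, among them leaving out control 0 h A, control 16 h B, mutp53-depleted 0 h A or mutp53-depleted 16 h B. IRF1 had -0.53 (SE 0.13, adjusted p = 0.038) and CEBPB 0.43 (SE 0.11, adjusted p = 0.045), and each lost it in 10. For IRF1 these included leaving out any library other than control 0 h A, control 16 h B or mutp53-depleted 0 h A, and for CEBPB any library other than control 0 h B. Groups of 2 libraries are too small for a search for single outlying libraries.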

How the results depend on the processing

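None of the 829 recomputed log2 differences of the 10 genes turned a call around, and 816 stayed on the same side of the call. Most of the 829 belong to differences not called in the main fit, where no call could be lost. The calls of SOCS1 (TNF-α, control cells) and SOCS2 (TNF-α, mutp53-depleted cells) were lost in 4 and 2 of 16 alternatives. That of CISH (depletion at 16 h) was lost in 3 of 17, and the other calls held in all. The called genes with TNF-α in control cells numbered 2, and 1 with a pseudocount of 5 or with DESeq2, and between 1 and 2 with a library left out (1 without control 0 h A or control 16 h A). With TNF-α in mutp53-depleted cells there were 2, and 1 with a pseudocount of 5, and between 1 and 2 with a library left out (1 without mutp53-depleted 16 h B). After depletion at 0 h there was 1, and 2 with edgeR and 3 with the neighbouring genes removed. After depletion at 16 h there were 2, and 1 with a pseudocount of 5 or with DESeq2, and between 1 and 3 with a library left out (1 without control 16 h B and 3 without control 16 h A). The interaction gave 1 in every alternative run. With the replicate block the counts were 2, 2, 1, 2 and 1, as without it, while among the other genes named it brought the interactions of LCN2 (1.16, adjusted p = 0.049) and IFNGR1 (-0.84, adjusted p = 0.013) past the threshold. The main fit did not pair the libraries by letter. The correlation of same-letter deviations between groups lay between -0.091 and 0.287 and was over 0.1 in 4 of 6 pairs of groups. These values do not show that the letters are unrelated. With the replicate block 3.78% of all genes passed the interaction test, against 2.86% without it. Library A was the deeper in each group. For 44 other genes, 3468 of 3601 recomputed values stayed on the same side, 97 lost and 36 gained the call, and 0 turned around. DESeq2 gave no adjusted p for the interaction of CISH. The cause of these changes was not tested. CISH and SOCS1 rested on few reads (at most 39 and 64 in any library), which limits their precision.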
